A study of Mus musculus with 6 samples.

Results

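The nuclear genes for the subunits of the mitochondrial respiratory chain and of ATP synthase were followed in cells sorted from dystrophic muscle. They were taken by symbol from the expression table: every gene named Nduf (without the Ndufaf assembly factors), Uqcr, Atp5 or Cox4 to Cox8, together with Sdha, Sdhb, Sdhc and Sdhd. This gave 84 of the 21671 genes in the table: 38 of complex I, 4 of complex II, 8 of complex III, 17 of complex IV and 17 of ATP synthase, which is called complex V. The mice were mdxITGAM-DTR animals, in which the ITGAM (CD11b) promoter drives a receptor for diphtheria toxin (DT) on the dystrophin-deficient mdx background, so that DT depletes macrophages. The receptor and the mdx background were shared by all groups. Mice of 10 to 12 weeks received 4 intramuscular injections of DT, or of PBS as control, and cells were sorted from the Gastrocnemius 15 days after the first injection, each library pooling 2 mice. Satellite cells (SCs), the stem cells of muscle, were sorted as α7-integrin+/Sca1-/Lineage- cells from PBS-injected mice (SCs CTRL) and DT-injected mice (SCs DT). The α7Sca1 cells, α7-integrin+/Sca1+/Lineage-, came from DT-injected mice alone. Each of the 3 groups had 2 libraries, given below in the order replicate 1, replicate 2.

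Complex I (NADH dehydrogenase) and complex II (succinate dehydrogenase) pass electrons to coenzyme Q, complex III passes them to cytochrome c, and complex IV (cytochrome c oxidase) passes them to oxygen. Complexes I, III and IV pump protons, and ATP synthase uses the proton gradient to make ATP. Several subunits of complex IV exist as paralogs, with a form found in most tissues and another favoured in a given tissue, such as the heart and skeletal muscle forms Cox6a2 and Cox7a1.

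Expression was given as RPKM, reads scaled to transcript length and to the number of mapped reads, in values that share 1 distribution across the 6 libraries. Depth is therefore unknown, and no counting error can be given. The limma test was run on log2(RPKM + 1), a scale that understates the change of genes at low RPKM, and a gene was called where its adjusted p was under 0.05 among the 13934 genes above 0.25 RPKM in at least 1 library. Of the respiratory genes 82 entered this test. Cox7b2 and Cox8c did not, with at most 0.0969 RPKM and 0.0503 RPKM in any library. The labelled identities were checked on marker genes. All 7 satellite cell markers were called lower in the α7Sca1 cells against SCs DT and against SCs CTRL, where 15.6 and 17.3% of all genes were. Pax7 lay at 2.67 to 5.01 RPKM in the 4 SC libraries and at 0.319 and 0.38 RPKM in the α7Sca1 libraries. The same comparisons found all 10 adipocyte markers higher, where 14.6 and 15.1% of all genes were. Their summed RPKM was 97.6 and 73.5 in SCs CTRL, 229 and 637 in SCs DT, and 11403 and 11208 in the α7Sca1 libraries. Of these markers 1, Cfd, was called higher in SCs DT than in SCs CTRL (limma adjusted p = 0.0346), where 0.352% of all genes were. The summed RPKM of 5 brown fat markers was 2.76 to 4.65 in all 6 libraries. The macrophage markers were also present in all 6 libraries, with a summed RPKM of 958 and 512 in SCs CTRL and 240.3 and 470.3 in SCs DT. In α7Sca1 cells their sum was 290 and 269, of which Cd14 gave 194 and 197.

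The respiratory genes were among the abundant transcripts of all 3 populations. Together they took 3.47 and 4.48% of the summed RPKM in SCs CTRL, 4.40 and 4.27% in SCs DT and 4.72 and 4.05% in α7Sca1 cells. Across the 6 libraries the highest mean in each complex belonged to Ndufa4 (187 RPKM, counted with complex I by its symbol), Sdhb (106 RPKM), Uqcr10 (192 RPKM), Cox4i1 (443 RPKM) and Atp5b, the catalytic β subunit of ATP synthase (623 RPKM). The lowest means among the tested genes were those of Ndufa11 (7.99 RPKM), Sdhc (60.1 RPKM), Uqcrc2 (48.6 RPKM), Cox6b2, the testis form of its subunit (1.37 RPKM), and Atp5s (2.62 RPKM). Most of the low values were thus those of tissue forms of complex IV and of 2 genes, Atp5s and Atp5sl, that carry the Atp5 symbol but are listed by RefSeq as Dmac2l and Dmac2.

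**Figure D1:**
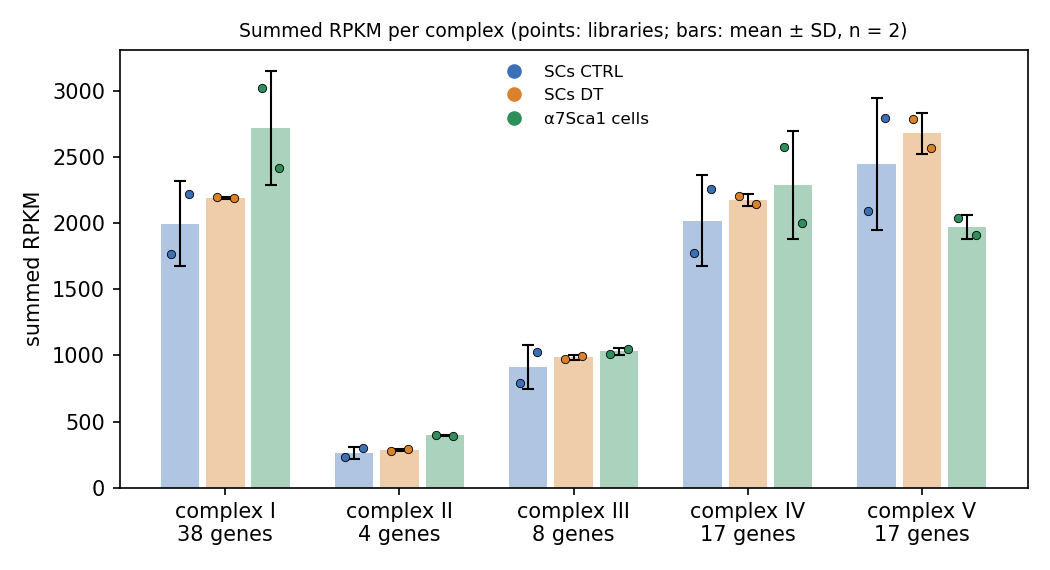
Summed RPKM of the genes of each complex (vertical axis) in SCs CTRL, SCs DT and α7Sca1 cells, with points for libraries and bars for the mean ± SD of n = 2. Complexes I and II lie higher and complex V lower in both α7Sca1 libraries than in any SC library, while complexes III and IV overlap.

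DT and control satellite cells were compared first, which asks whether macrophage depletion changed these genes in SCs. A single member rose, Cox6a2, and none fell. This is 1 of 82 tested genes, while 0.445% of all 13934 genes were called in this comparison, 0.352% as higher and 0.0933% as lower. No other respiratory gene had even an unadjusted limma p under 0.05, where 1449 of all 13934 genes did. In 67 of the 82 the 95% interval of the difference lay within 1 log2 unit on either side of 0, as in 11655 of all 13934 genes. The median log2 difference of the 82 genes was 0.11, against -0.01 over all genes tested. Of the 82 differences 63 were positive, and of those of all 13934 genes 6693. The median of the 82 genes turned with the control library that was left out: it was -0.05 without SCs CTRL replicate 1 and 0.30 without SCs CTRL replicate 2.

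The gap between the 2 control libraries was wider than this median difference between the groups. In 78 of the 82 genes SCs CTRL replicate 1 had the lower value, with a median gap of 0.34 on the log2 scale, while the gap over the 2604 genes with a mean of at least 10 RPKM was 0.07. In SCs DT the corresponding median gap of the 82 genes was -0.02. The summed RPKM of complex I was 1767 and 2223 in SCs CTRL and 2197 and 2187 in SCs DT. Complex V showed the same order, with 2096 and 2799 in SCs CTRL and 2790 and 2572 in SCs DT. In both complexes the SCs DT libraries stood between the 2 control libraries. The fibroadipogenic markers, summed, were 3050 RPKM in SCs CTRL replicate 1 and 399 RPKM in replicate 2, and whether this is tied to the lower respiratory genes in replicate 1 was not tested.

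**Figure D2:**
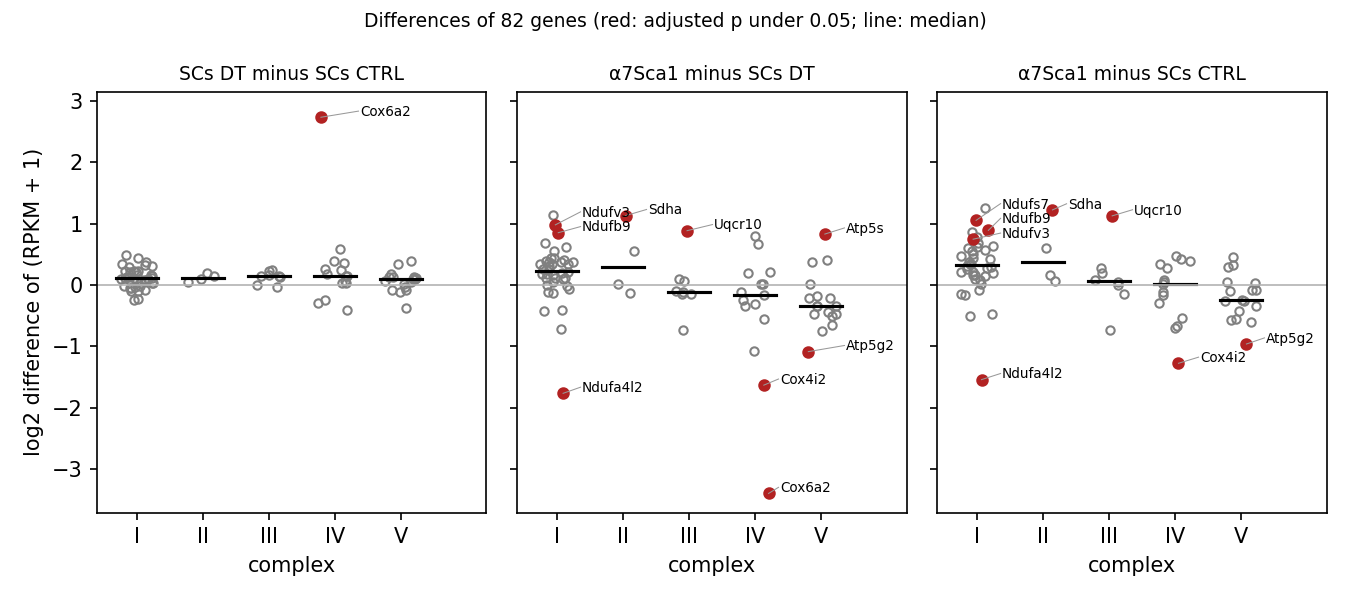
Log2 difference of (RPKM + 1) for the 82 tested genes (vertical axis) by complex (horizontal axis) in the 3 comparisons, with red points for adjusted p under 0.05 and black lines for medians. In SCs DT against SCs CTRL only Cox6a2 is red, at 2.73, and in the α7Sca1 comparisons complex V has the lowest median.

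Cox6a2 is the heart and skeletal muscle form of subunit 6a of cytochrome c oxidase, and Cox6a1 the form of most other tissues. Cox6a2 (chr7:135348950-135349880, minus strand, mm9) was measured at 0.934 and 1.87 RPKM in SCs CTRL, at 11.8 and 18.2 RPKM in SCs DT, and 0.491 and 0.489 RPKM in α7Sca1 cells. Both SCs DT libraries lay above all others, and the 3 groups did not overlap. The rise from SCs CTRL to SCs DT was 2.73 ± 0.27 (log2 difference ± SE, n = 2 per group, limma adjusted p = 0.00983), and Cox6a2 fell by 3.39 ± 0.27 from SCs DT to α7Sca1 cells (adjusted p = 0.000264). The difference of -0.66 ± 0.27 between α7Sca1 cells and SCs CTRL was not called (adjusted p = 0.102), but was at -1.27 with a pseudocount of 0.1 (adjusted p = 0.0311). The call against SCs CTRL was lost without SCs CTRL replicate 1 (adjusted p = 0.163), SCs DT replicate 2 (0.11) or either α7Sca1 library (0.0578 and 0.058), and without the filter on low values (0.0687). The lower level in α7Sca1 cells than in SCs DT kept its call with each library left out. Here and below, leaving out a library of a group that is not compared leaves the log2 difference unchanged. A call is then lost through the test alone, whose spread is estimated over all remaining libraries. Cox6a1 was at 209.7 and 247.8 RPKM in SCs CTRL, at 194 and 190.1 RPKM in SCs DT, and 330.5 and 284 RPKM in α7Sca1 cells. The muscle form therefore made up 0.443 and 0.748% of the summed RPKM of the pair in SCs CTRL, 5.72 and 8.74% in SCs DT, and 0.148 and 0.172% in α7Sca1 cells.

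Markers of muscle fibers moved with Cox6a2. Of 13 tested fiber markers 7 were called higher in SCs DT than in SCs CTRL, where 0.352% of all genes were. The summed RPKM of all 14 fiber markers was 248 and 475 in SCs CTRL, 1524 and 2284 in SCs DT, and 50.1 and 44.9 in α7Sca1 cells. Ckm, the muscle creatine kinase, was at 5.05 and 9.14 RPKM, 64.6 and 81.4 RPKM, and 1.27 and 2.23 RPKM in the same order. Expressed as a percentage of Ckm, Cox6a2 was 18.5 and 20.4% in SCs CTRL, 18.2 and 22.3% in SCs DT, and 38.6 and 21.9% in α7Sca1 cells, where both genes were low. From SCs CTRL to SCs DT the 13 tested fiber markers differed by 0.21 (Myh7) to 3.23 (Ckm) on the log2 scale, with a median of 2.53. The ratio to fiber markers other than Ckm was not computed. The part of fiber RNA in the Cox6a2 difference was not tested. The other muscle form, Cox7a1, was at 3.32 and 2.87 RPKM in SCs CTRL, at 3.62 and 5.18 RPKM in SCs DT, and 2.80 and 0.684 RPKM in α7Sca1 cells. Between SCs DT and SCs CTRL it differed by 0.39 (adjusted p = 0.826). Against SCs DT the α7Sca1 cells differed by -1.08 (adjusted p = 0.063) and against SCs CTRL by -0.69 (adjusted p = 0.19), and both differences were called without α7Sca1 replicate 1 (adjusted p = 0.00652 and 0.0135). Cox7a1 formed 2.26 to 4.38% of the Cox7a1 and Cox7a2 sum in the SC libraries and 2.69 and 0.746% in the α7Sca1 libraries.

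**Figure D3:**
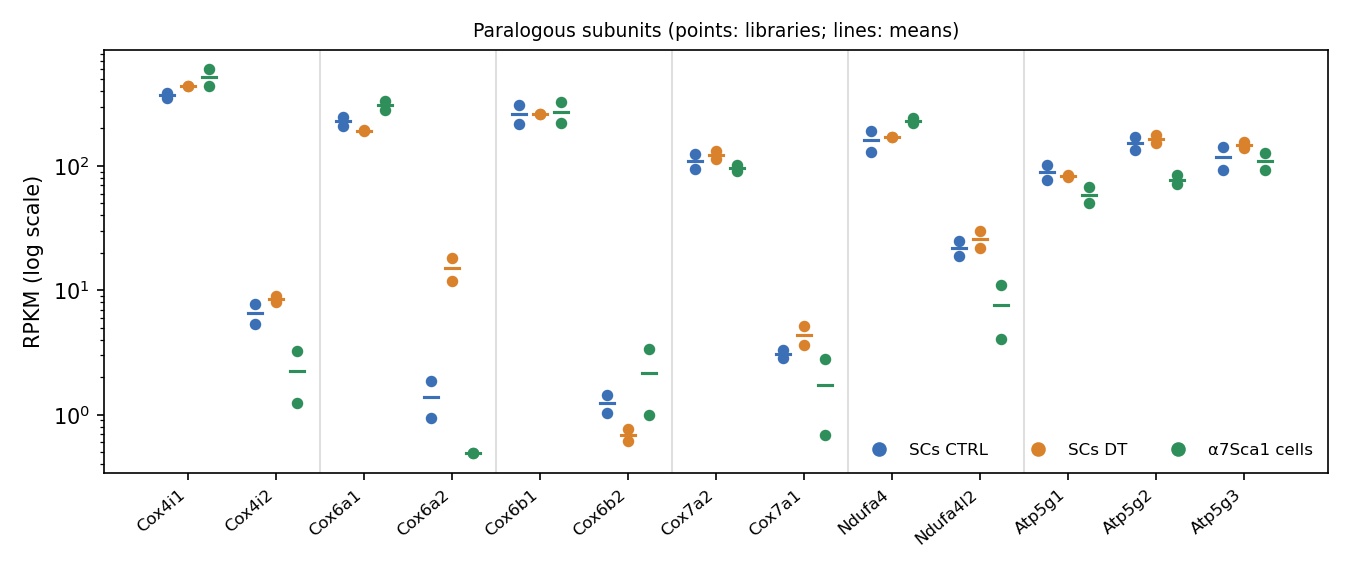
RPKM on a log scale (vertical axis) of paralogous subunits, side by side, with a point for each library and a line for the group mean. The tissue forms lie below their common partner in every library, and Cox6a2 spreads from 0.489 to 18.2 RPKM.

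The α7Sca1 cells were compared with both SC groups. The comparison with SCs DT holds the DT injection fixed, whereas against SCs CTRL the cell population and the injection cannot be told apart. The 2 comparisons share the α7Sca1 libraries, so their values are given side by side and not as independent support. Against SCs DT, 5 respiratory genes were higher and 4 lower among the 82 tested (11.0%), where 30.3% of all genes were called, 14.6% as higher and 15.6% as lower. Against SCs CTRL, 5 were higher and 3 lower (9.76%), where 32.3% of all genes were called, 15.1% as higher and 17.3% as lower. Among the 2604 genes with a mean of at least 10 RPKM the shares called were 43.2 and 46.5%. The median log2 differences of the 82 genes were 0.04 and 0.17, against -0.04 and -0.06 over all genes tested. The first of these medians was -0.05 without α7Sca1 replicate 1 and the second -0.03 without SCs CTRL replicate 1, so that neither has a settled sign. After median-ratio rescaling the medians were 0.14 and 0.31, and the second count became 8 higher and 3 lower. The counts fell to 1 called gene against SCs DT without either SCs DT library, and rose to 15 without α7Sca1 replicate 2. Against SCs CTRL they ran from 0 without SCs CTRL replicate 1 to 14 without α7Sca1 replicate 2, and were 2, 3 and 1 without SCs CTRL replicate 2, SCs DT replicate 1 and SCs DT replicate 2.

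Both α7Sca1 values lay outside the range of the 4 SC values in 32 of the 82 genes (39.0%), 19 above and 13 below, where 55.1% of all genes tested did so. By complex, 13 of 38 genes of complex I (34.2%) lay above and 2 (5.26%) below. In complex V 2 of 17 (11.8%) lay above and 6 (35.3%) below. The 2 above were Atp5s and Atp5sl, which carry the symbol but are not subunits of ATP synthase. Over all genes tested 24.7% lay above and 30.4% below.

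**Figure D4:**
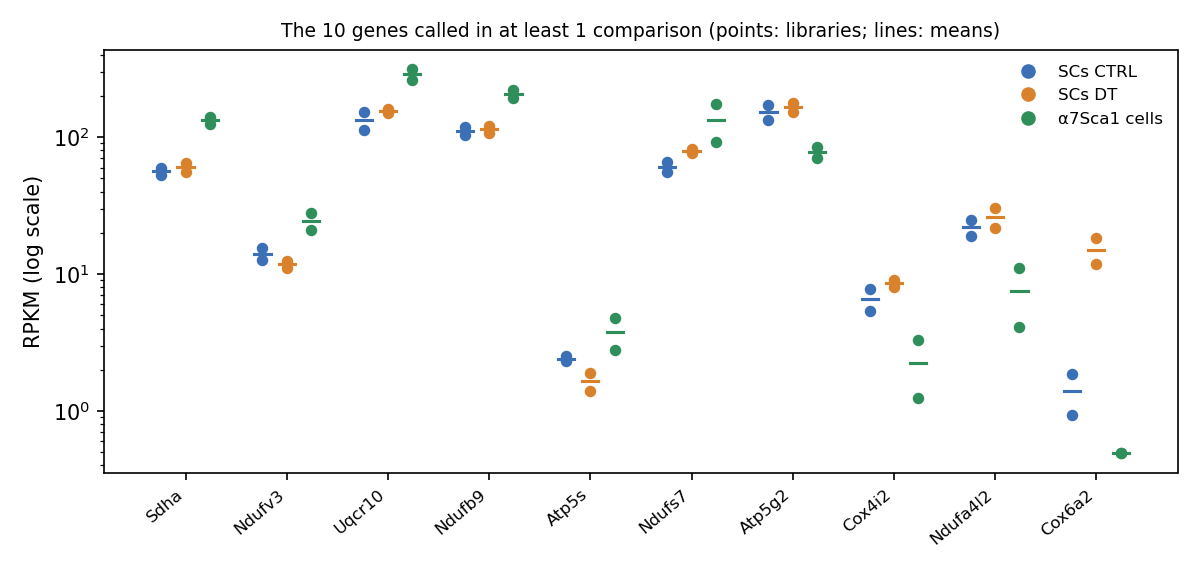
RPKM on a log scale (vertical axis) of the 10 respiratory genes called in at least 1 comparison, with a point for each library and a line for the group mean. Sdha, at 124.5 and 141 RPKM in α7Sca1 cells, and Cox6a2, at 11.8 and 18.2 RPKM in SCs DT, stand clear of the other groups.

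In complex I, Ndufb9 and Ndufv3 were higher in the α7Sca1 cells than in both SC groups, and Ndufs7 than in SCs CTRL. Ndufb9 (chr15:58765365-58771044, plus strand), an accessory subunit of the membrane arm, was at 104 and 118 RPKM in SCs CTRL, at 122 and 107 RPKM in SCs DT, and 222 and 192.5 RPKM in α7Sca1 cells. Both α7Sca1 libraries were above all 4 SC libraries, by 0.85 ± 0.24 against SCs DT (adjusted p = 0.0337) and 0.89 ± 0.24 against SCs CTRL (adjusted p = 0.0278). Ndufv3 (chr17:31657060-31668266, plus strand), an accessory subunit of the module that oxidises NADH, was at 12.8 and 15.4, 11.1 and 12.4, and 20.9 and 28.1 RPKM in the same order. Its groups did not overlap either, and it differed by 0.98 ± 0.23 from SCs DT (adjusted p = 0.0179) and 0.75 ± 0.23 from SCs CTRL (adjusted p = 0.044). Ndufs7 (chr10:79711866-79719539, plus strand), a core iron-sulfur subunit next to the coenzyme Q site, was at 55.8 and 65.9 RPKM in SCs CTRL, at 76.2 and 82.04 RPKM in SCs DT, and 174.7 and 92.3 RPKM in α7Sca1 cells. The 2 α7Sca1 libraries were far apart, and Ndufs7 was called against SCs CTRL (1.05 ± 0.33, adjusted p = 0.0457) but not against SCs DT (0.68 ± 0.33, adjusted p = 0.161) unless α7Sca1 replicate 2 was left out (1.13, adjusted p = 0.0169). Against SCs DT the Ndufb9 call was lost without any 1 library other than α7Sca1 replicate 2 (adjusted p up to 0.204), and the Ndufv3 call without either SCs DT library (0.127 and 0.0819). Against SCs CTRL all 3 calls were lost without any of the SC libraries, the adjusted p reaching 0.129 for Ndufb9, 0.203 for Ndufs7 and 0.208 for Ndufv3, that of Ndufs7 also without α7Sca1 replicate 1 and that of Ndufv3 also without α7Sca1 replicate 2.

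The gene counted with complex I by its symbol that fell was Ndufa4l2, a paralog of Ndufa4 that is induced by hypoxia. Ndufa4 was first assigned to complex I and is now known as a subunit of cytochrome c oxidase. Ndufa4l2 (chr10:126951995-126954208, plus strand) was at 24.9 and 19.1 RPKM in SCs CTRL, at 30.2 and 21.7 RPKM in SCs DT, and 11.1 and 4.09 RPKM in α7Sca1 cells. Both α7Sca1 values were under every SC value. Ndufa4l2 fell by 1.76 ± 0.41 from SCs DT (adjusted p = 0.0167) and by 1.54 ± 0.41 from SCs CTRL (adjusted p = 0.026). The first call was lost without either SCs DT library (adjusted p = 0.116 and 0.0625), the second without either SCs CTRL library (0.159 and 0.094), SCs DT replicate 2 (0.055) or α7Sca1 replicate 2 (0.0598). Ndufa4l2 overlaps Shmt2, a mitochondrial enzyme of serine metabolism on the opposite strand, and the libraries do not record strand, so reads from the overlap cannot be assigned. Shmt2 was itself lower in α7Sca1 cells, at 7.09 and 4.49 RPKM, than in the 4 SC libraries, at 16.2 to 20.3 RPKM. Ndufa4 was at 129 and 191 RPKM in SCs CTRL, at 170.1 and 169.5 RPKM in SCs DT, and 221 and 240.8 RPKM in α7Sca1 cells, and Ndufa4l2 made up 9.07 to 16.2% of the pair in the SC libraries and 4.77 and 1.67% in the α7Sca1 libraries.

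In complex II the catalytic flavoprotein subunit Sdha rose. Sdha (chr13:74459702-74487728, minus strand) was at 52.8 and 59.7 RPKM in SCs CTRL, at 55.2 and 65.0 RPKM in SCs DT, and 124.5 and 141 RPKM in α7Sca1 cells. Both α7Sca1 libraries were above all SC libraries. The log2 difference was 1.13 ± 0.23 against SCs DT (adjusted p = 0.0108) and 1.22 ± 0.23 against SCs CTRL (adjusted p = 0.00743). The first call was lost without either SCs DT library (adjusted p = 0.112 and 0.0613) and the second without SCs CTRL replicate 1 (0.0577). Sdhb, the iron-sulfur subunit, was at 76.0 to 104.6 RPKM in the SC libraries and 139.6 and 132.7 RPKM in α7Sca1 cells, without overlap, and was not called (0.56 ± 0.25 against SCs DT, adjusted p = 0.132, and 0.60 against SCs CTRL, adjusted p = 0.106). The membrane anchors Sdhc and Sdhd overlapped between the groups, at 49.8 to 65.7 RPKM and 53.2 to 74.0 RPKM over all 6 libraries. The ratio of Sdha to Sdhb was 0.571 to 0.715 in the SC libraries and 0.891 and 1.06 in the α7Sca1 libraries.

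In complex III the small subunit Uqcr10 rose, and no gene was called lower. Uqcr10 (chr11:4601976-4604345, minus strand) was at 112 and 153 RPKM in SCs CTRL, at 149 and 161 RPKM in SCs DT, and 314 and 263 RPKM in α7Sca1 cells. The groups of SCs and α7Sca1 cells did not overlap, and the log2 difference was 0.89 ± 0.27 against SCs DT (adjusted p = 0.042) and 1.13 ± 0.27 against SCs CTRL (adjusted p = 0.0173). The call against SCs DT was lost without any 1 library other than α7Sca1 replicate 2 (adjusted p up to 0.232), and that against SCs CTRL without SCs CTRL replicate 1 (0.102) or either SCs DT library (0.0543 and 0.0566). Uqcrh, the hinge protein, was at 184 and 230.3 RPKM in SCs CTRL, at 207.5 and 204.5 RPKM in SCs DT, and 121 and 127 RPKM in α7Sca1 cells. Its differences of -0.73 against SCs DT (adjusted p = 0.059) and -0.73 against SCs CTRL (adjusted p = 0.057) stood just outside the threshold, and both were called without a trend in the variance (adjusted p = 0.0189 and 0.0181). The core subunits Uqcrc1 and Uqcrc2 were at 84.4 to 124 RPKM and 39.6 to 52.8 RPKM over all 6 libraries, and passed the test in none of the comparisons.

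No gene of complex IV passed the test as higher in the α7Sca1 cells. Cox6a1, whose values are given above, came nearest, with 0.67 ± 0.25 against SCs DT (adjusted p = 0.0805), and it was called after median-ratio rescaling (adjusted p = 0.0473) and without a trend in the variance (0.0244). Cox4i2 was lower than in both SC groups, beside the fall of Cox6a2 from SCs DT. Cox4i2, the form of subunit 4 known from lung and from low oxygen (chr2:152579909-152590773, plus strand), was at 7.82 and 5.35 RPKM in SCs CTRL, at 8.10 and 9.08 RPKM in SCs DT, and 3.27 and 1.24 RPKM in α7Sca1 cells. All 4 SC values were above both α7Sca1 values. Cox4i2 fell by 1.63 ± 0.33 from SCs DT (adjusted p = 0.00976) and by 1.27 ± 0.33 from SCs CTRL (adjusted p = 0.0229). The first call was lost without either SCs DT library (adjusted p = 0.0569 and 0.0698), the second without either SCs CTRL library (0.156 and 0.0678), SCs DT replicate 2 (0.0537) or α7Sca1 replicate 2 (0.0623). The common form Cox4i1 was at 354 and 386 RPKM in SCs CTRL, at 441 and 438 RPKM in SCs DT, and 599 and 438 RPKM in α7Sca1 cells. Cox4i2 was therefore 1.37 to 2.16% of the pair in the SC libraries, and 0.543 and 0.283% in the α7Sca1 libraries. Cox6b2, the testis form of subunit 6b, was at 0.613 to 1.45 RPKM in the SC libraries and at 3.36 and 0.988 RPKM in α7Sca1 cells, and was not called (0.80 against SCs DT, adjusted p = 0.114) unless α7Sca1 replicate 2 was left out (1.37, adjusted p = 0.00731). The remaining genes of the complex, such as Cox5a, Cox5b, Cox6c, Cox7b, Cox7c and Cox8a, passed the test in none of the comparisons.

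Several markers of pericytes and smooth muscle, cells in which Ndufa4l2 and Cox4i2 are known to be expressed, were also lower in α7Sca1 cells. Of 9 such markers 6 were called lower against SCs DT, where 15.6% of all genes were. Against SCs CTRL 4 were lower (Acta2, Myh11, Notch3 and Des) and 1, Abcc9, higher, where 17.3 and 15.1% of all genes were. Rgs5, Cspg4, Pdgfrb and Kcnj8 were not called there. The summed RPKM of the 9 markers was 811 and 963 in SCs CTRL, 1458 and 1157 in SCs DT, and 251 and 101 in α7Sca1 cells. Des alone was at 203 and 304, 325 and 334, and 36.2 and 18.4 RPKM in the same order. Muscle cells express Des as well, so its fall cannot be assigned to pericytes and smooth muscle. Acta2 and Myh11 of smooth muscle fell to 80.2 and 15.3 RPKM and to 3.33 and 1.58 RPKM, while the pericyte genes Kcnj8 (10.7 and 4.25 RPKM) and Abcc9 (3.58 and 3.802 RPKM) stayed in the range of the SCs or above it. The part of such cells in the Ndufa4l2 and Cox4i2 differences was not tested. In such bulk libraries fewer cells of a type and less RNA per cell cannot be told apart.

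In ATP synthase the called genes were Atp5g2, which was lower, and Atp5s. Atp5g1, Atp5g2 and Atp5g3 encode the same mature c subunit, which forms the proton-driven ring. Atp5g2 (chr15:102493299-102501478, minus strand) was at 133 and 171.5 RPKM in SCs CTRL, at 179 and 152 RPKM in SCs DT, and 70.96 and 84.1 RPKM in α7Sca1 cells. Every SC library was above both α7Sca1 libraries. Atp5g2 fell by 1.08 ± 0.26 from SCs DT (adjusted p = 0.0184) and by 0.96 ± 0.26 from SCs CTRL (adjusted p = 0.027). The first call was lost without either SCs DT library (adjusted p = 0.152 and 0.0865) and the second without any library but α7Sca1 replicate 2 (adjusted p up to 0.157). Atp5g1 was at 76.6 to 102.4 RPKM in the SC libraries and 49.99 and 67.1 RPKM in the α7Sca1 libraries, and Atp5g3 at 93.0 to 154.5 RPKM and 126 and 93.3 RPKM. Neither was called. Atp5g2 gave 40.8 to 44.0% of the 3 genes' summed RPKM in the SC libraries and 28.7 and 34.4% in the α7Sca1 libraries, where Atp5g3 gave 51.1 and 38.1%. Reads shared by near-identical copies of these genes may be split or lost in counting, and how they were treated is not given in the sources used here.

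Atp5s (chr12:70825949-70845645, plus strand), which is listed as Dmac2l and is not a structural subunit, was at 2.32 and 2.50 RPKM in SCs CTRL, at 1.40 and 1.91 RPKM in SCs DT, and 2.80 and 4.80 RPKM in α7Sca1 cells. It exceeded the SCs DT level in α7Sca1 cells by 0.83 ± 0.24 (adjusted p = 0.0365), a call that was lost without any 1 library other than α7Sca1 replicate 1 (adjusted p up to 0.2), and it was not called against SCs CTRL (0.46, adjusted p = 0.181, or 0.77 and 0.0363 without α7Sca1 replicate 1). Atp5b was the most abundant gene of all 84, with 568 and 773 RPKM in SCs CTRL, at 817 and 687 RPKM in SCs DT, and 418 and 478 RPKM in α7Sca1 cells. Both α7Sca1 libraries had less of it than any SC library, and the difference was not called (-0.74 against SCs DT, adjusted p = 0.0903 and 0.0375 without a trend in the variance, and -0.57 against SCs CTRL, adjusted p = 0.171). Atp5a1, the α subunit that alternates with it in the catalytic head, was at 163 to 216 RPKM in the SC libraries and 166 and 186 RPKM in the α7Sca1 libraries, so that the ratio of Atp5b to Atp5a1 was 3.34 to 4.01 in the SC libraries and 2.51 and 2.57 in the α7Sca1 libraries.

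The sums of the complexes were taken over all their genes, called or not. Complex I came to between 1767 and 2223 RPKM in SCs and to 3026 and 2415 RPKM in α7Sca1 cells. Complex V came to between 2096 and 2799 RPKM in SCs and to 2037 and 1908 RPKM in α7Sca1 cells. The ratio of complex V to complex I was therefore 1.19 and 1.26 in SCs CTRL, 1.27 and 1.18 in SCs DT, and 0.673 and 0.79 in α7Sca1 cells, with no overlap between SCs and α7Sca1 cells. Without the gene of highest RPKM in each complex, Atp5b and Ndufa4, the ratio was 0.933 to 0.997 in the SC libraries and 0.577 and 0.658 in the α7Sca1 libraries. This ratio was chosen after the values were seen and is given without a test. Complex II came to between 232 and 297 RPKM in SCs and to 399 and 393 RPKM in the α7Sca1 libraries, whereas complex III (795 to 1029 RPKM against 1012 and 1049 RPKM) and complex IV (1775 to 2261 RPKM against 2579 and 2001 RPKM) overlapped.

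The gap between the 2 α7Sca1 libraries differed with transcript length. Among the 29 respiratory genes with a median annotated transcript under 600 bases, replicate 2 was lower than replicate 1 in 23, with a median gap of -0.55 on the log2 scale. The 137 genes of that length with a mean of at least 10 RPKM showed a median gap of -0.46. In the 25 respiratory genes of 1000 bases and more the median gap was 0.04. The SCs CTRL libraries also differed by length over all genes of at least 10 RPKM, with median gaps of 0.27 under 600 bases and 0.03 at 1000 bases and more, while in the respiratory genes these gaps were 0.36 and 0.35. Ndufa3, a short accessory subunit of complex I, was at 99.0 and 32.4 RPKM in these libraries and at 23.1 to 25.7 RPKM in the SC libraries, and it was not called (1.14 against SCs DT, adjusted p = 0.102, and 1.25 against SCs CTRL, adjusted p = 0.0765), but was with α7Sca1 replicate 2 left out (0.00256 and 0.00199). Restricted to genes of 600 bases and more, 12 of complex V and 27 of complex I, the ratio of the complexes was 1.40 to 1.54 in the SC libraries and 0.748 and 0.948 in the α7Sca1 libraries.

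**Figure D5:**
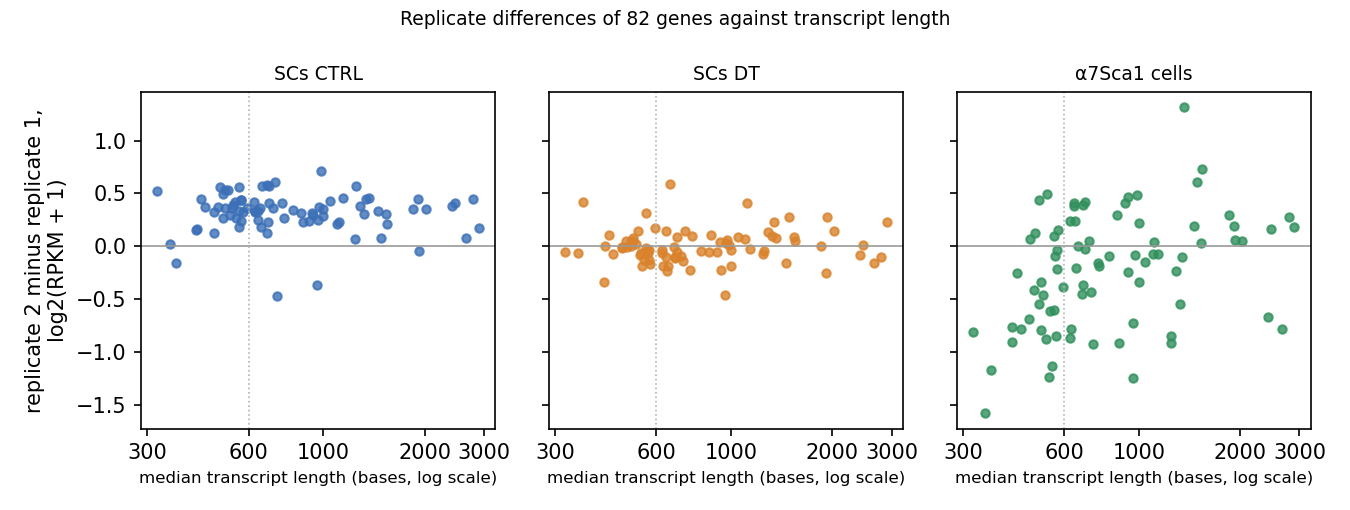
Difference between replicate 2 and replicate 1 in log2(RPKM + 1) for the 82 tested genes (vertical axis) against median transcript length in bases (log scale, dotted line at 600), for each group. Nearly all points of SCs CTRL are above 0 (78 of 82), those of SCs DT lie around 0, and the short genes of α7Sca1 cells lie below 0 (23 of 29 under 600 bases).

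Other genes of mitochondrial respiration were counted by list. None of the genes of these 5 lists was called between SCs DT and SCs CTRL. Of 40 assembly factors, which build the complexes but are not part of them, 5 rose in α7Sca1 cells against SCs DT and 7 against SCs CTRL, and none fell, that is, shares of 12.5 and 17.5% where 14.6 and 15.1% of all genes tested were called higher. Their median log2 differences were 0.33 and 0.29 against -0.04 and -0.06 over all genes tested. The complex III assembly factor Uqcc3 was at 4.07 and 4.61 RPKM in SCs CTRL, at 5.05 and 5.12 RPKM in SCs DT, and 13.4 and 11.2 RPKM in α7Sca1 cells, a difference of 1.12 ± 0.19 from SCs DT (adjusted p = 0.00514) and 1.31 ± 0.19 from SCs CTRL (adjusted p = 0.0025) that kept its call with each library left out. The complex I assembly factor Tmem126b was at 1.77 and 2.27, 2.56 and 2.53, and 5.17 and 6.75 RPKM (0.96 from SCs DT, adjusted p = 0.0108, and 1.20 from SCs CTRL, adjusted p = 0.00417). Its call against SCs DT was lost without either SCs DT library (adjusted p = 0.0702 and 0.0676). The complex IV factor Coa7 rose against SCs DT by 0.79 (adjusted p = 0.0104), though not without SCs DT replicate 1 (0.0815), and the complex I factor Foxred1 against SCs CTRL by 0.87 (adjusted p = 0.019), though not without either SCs CTRL library or α7Sca1 replicate 2 (adjusted p up to 0.132).

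Of 13 genes for cytochrome c, cytochrome c1 and coenzyme Q synthesis, 2 were higher and 1 was lower in α7Sca1 cells against either SC group. This is 23.1%, where 30.3 and 32.3% of all genes tested were called. Cytochrome c1 (Cyc1) is a subunit of complex III that the symbols taken above leave out, and it was called in no comparison. Coq9 was at 8.78 and 9.28 RPKM in SCs CTRL, at 11.0 and 13.2 RPKM in SCs DT, and 36.7 and 37.1 RPKM in α7Sca1 cells. Its differences of 1.54 ± 0.20 from SCs DT (adjusted p = 0.00168) and 1.92 ± 0.20 from SCs CTRL (adjusted p = 0.000669) were called with each library left out. Coq6, another enzyme of coenzyme Q synthesis, was at 4.19 to 5.39 RPKM in the SC libraries and 13.3 and 9.85 RPKM in α7Sca1 cells, and Coq10b, which binds coenzyme Q, at 39.9 to 55.4 RPKM and 20.2 and 23.95 RPKM. Calls of these 2 genes were lost without SCs DT replicate 1 in the comparison with SCs DT (adjusted p = 0.0728 and 0.0522) and without SCs CTRL replicate 1 in that with SCs CTRL (0.0758 and 0.0961), the Coq6 call against SCs DT also without SCs DT replicate 2, and the Coq10b call against SCs CTRL also without each other SC library.

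Of 76 genes of the mitochondrial ribosome, which translates the subunits encoded in mitochondrial DNA, 2 were higher and 1 lower in α7Sca1 cells against SCs DT, and 2 were higher and 4 lower against SCs CTRL, shares of 3.95 and 7.89% under the 30.3 and 32.3% of all genes tested. Mrps18a was at 16.0 to 18.3 RPKM in the SC libraries and 30.7 and 37.3 RPKM in α7Sca1 cells, and Mrpl52 at 28.6 to 36.3 RPKM and 18.3 and 15.8 RPKM. Both lost their call against SCs DT without either SCs DT library and against SCs CTRL without either SCs CTRL library (adjusted p up to 0.151), and Mrpl52 lost the latter also without either SCs DT library. Of 15 tested regulators of mitochondrial genes 1 was higher and 1 lower against SCs DT (13.3%), and 1 higher against SCs CTRL (6.67%), under the same shares of all genes. Ppargc1a, a coactivator that drives the formation of mitochondria, was at 0.439 and 0.61 RPKM in SCs CTRL, at 0.787 and 0.693 RPKM in SCs DT, and 1.98 and 11.1 RPKM in α7Sca1 cells. It was higher than in SCs DT by 1.79 ± 0.55 (adjusted p = 0.046) and than in SCs CTRL by 1.98 ± 0.55 (adjusted p = 0.0313), both calls being lost without any of the SC libraries (adjusted p up to 0.176). Yy1, a transcription factor, was lower than in SCs DT by 0.86 on the log2 scale (adjusted p = 0.0214), with 3.795 and 3.75 RPKM in SCs DT and 1.21 and 2.10 RPKM in α7Sca1 cells, a call lost without SCs CTRL replicate 1, either SCs DT library or α7Sca1 replicate 1 (adjusted p up to 0.108).

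Among 6 uncoupling proteins and ADP/ATP carriers, 4 of them tested, Ucp3 was higher and Slc25a4, the carrier form of heart and skeletal muscle, lower in α7Sca1 cells against both SC groups. This is 50% of the tested genes of this short list, where 30.3 and 32.3% of all genes were called. Ucp3 was at 0.0563 to 0.162 RPKM in the SC libraries and 1.07 and 1.44 RPKM in α7Sca1 cells, and was called with each library left out. Slc25a4 was at 148 to 187 RPKM and 81.6 and 55.6 RPKM. Its call against SCs DT was lost without either SCs DT library (adjusted p up to 0.133) and that against SCs CTRL without SCs CTRL replicate 2 (0.0898). Ucp1, the uncoupling protein of brown fat, was at most 0.221 RPKM in any library and was not tested.

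Promoters were read for the 69 members that matched the RefSeq promoter table (GRCm38.p6, 250 bases before to 50 after each start). Letters known for factors of respiratory genes were searched on both strands. The core of the NRF1 site, CGCATGCG, was found in 13.0% of these genes and in 2.07% of all 27025 genes with a promoter in the table. The YY1 letters AAGATGGC were found in 15.9 and 3.19%, the ETS letters CCGGAAGT of GABP in 7.25 and 4.31%, the ERR letters TCAAGGTCA in 2.90 and 0.466%, and the E-box CAGCTG of myogenic factors in 7.25 and 18.3%. The stretches around the NRF1 core before the start are shown in full, since this group holds the called gene Atp5g2 and Cox6a1, the partner of Cox6a2, and that around the ERR letters of Atp5g3 is added because it encodes the same c subunit. Capitals mark the letters searched, and each line is read 5′ to 3′ on the strand of the gene.
Atp5g2 (NRF1, chr15:102671061-102671108, minus strand): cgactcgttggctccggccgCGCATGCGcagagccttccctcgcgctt
Atp5j (NRF1, chr16:84835096-84835143, minus strand): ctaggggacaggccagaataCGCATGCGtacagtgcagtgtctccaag
Atp5k (NRF1, chr5:108434421-108434468, minus strand): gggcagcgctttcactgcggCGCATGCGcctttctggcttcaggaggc
Atp5l (NRF1, chr9:44920956-44920992, minus strand): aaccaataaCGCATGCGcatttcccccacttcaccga
Cox6a1 (NRF1, chr5:115349092-115349139, minus strand): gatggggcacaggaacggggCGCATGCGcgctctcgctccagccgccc
Ndufa11 (NRF1, chr17:56717683-56717730, plus strand): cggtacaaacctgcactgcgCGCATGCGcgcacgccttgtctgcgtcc
Ndufa8 (NRF1, chr2:36049339-36049367, minus strand): cgcttgcgcgtcgctggagaCGCATGCGc
Atp5g3 (ERR, chr2:73911350-73911398, minus strand): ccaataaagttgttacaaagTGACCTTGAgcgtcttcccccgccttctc
In Atp5g2 the core began 41 bases before the start, and in Cox6a1 161 bases before it. The ERR letters of Atp5g3 stood on the opposite strand of the gene. Of the genes shown, Atp5g2 was the only one called in any comparison. Of the other called genes Ndufs7 held the YY1 letters, while Ndufv3, Sdha, Uqcr10 and Atp5s held none of the letters searched in this window, and the promoters of Ndufb9, Cox4i2, Ndufa4l2 and Cox6a2 were not analysed here. A match of letters is a description of the sequence and not a site of binding.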

How the data were processed

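RNA from 5 ng of sorted-cell total RNA was made into libraries with the Smart-Seq2 protocol, which primes on poly(A) and keeps no strand, and sequenced in single reads of 50 bases. According to the submitters' processing notes reads were aligned with TopHat2 (version 2.0.8) to mm9. The authors deposited RPKM values per gene for 6 libraries, whose sorted values differ by at most 0.0192 RPKM between libraries, so that depth and counting error are unknown. A second table of the authors' own comparison (fold changes and p-values) and its 10 per-sample columns were not used.

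Genes above 0.25 RPKM in at least 1 library were tested with limma (version 3.58.1, R 4.3.3) on log2(RPKM + 1) over all 6 libraries, with a trend in the variance and Benjamini-Hochberg adjustment over all 13934 genes. The fit had 3 residual and 4.29 prior degrees of freedom. The libraries of a group were biological duplicates, each a pool of mice, and the sources used here do not say whether SCs DT and α7Sca1 cells came from the same mice. With 2 libraries per group an exact permutation test cannot go below p = 0.333. Coordinates and lengths are from GENCODE M1 (NCBIM37, the same assembly as mm9), and promoters from RefSeq (GRCm38.p6). The members, the marker lists and the related lists were chosen with earlier results of these data known. Named genes were all paralog forms, every gene called in SCs DT against SCs CTRL, up to 3 highest and 3 lowest called genes per complex in the α7Sca1 comparisons, the genes of highest and lowest mean per complex, those not tested, and up to 3 called genes per related list; Cox6a1, Sdhb, Sdhc, Sdhd, Atp5a1, Atp5b, Uqcrh and Ndufa3 were described also after their values were seen. Alternatives changed the pseudocount (0.1, 0.5), the filter (none, or a mean of at least 1 RPKM), the scaling, the samples fitted, a replicate block and the variance trend, and left out each library. Some genes of these families are not reported here.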

Additional observations from a re-analysis of the deposited data

How the results depend on the processing

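The count of called respiratory genes depended on the settings. Without a filter on low values it became 0 in SCs DT against SCs CTRL, 5 in α7Sca1 cells against SCs DT and 4 against SCs CTRL, and with the groups compared alone it became 3 in the last comparison. The first of these settings lost the calls of Cox6a2 in SCs DT against SCs CTRL, of Atp5s, Ndufa4l2, Ndufb9 and Uqcr10 against SCs DT, and in α7Sca1 cells of Cox4i2, Ndufa4l2, Ndufs7 and Ndufv3 against SCs CTRL. The second lost those of Atp5s, Ndufb9 and Uqcr10 against SCs DT and of Atp5g2, Ndufb9, Ndufs7, Ndufv3 and Uqcr10 against SCs CTRL. Leaving out 1 library gave 0 to 1, 1 to 15 and 0 to 14 called genes in the 3 comparisons. The median log2 difference of the members then ran from -0.05 to 0.30, from -0.05 to 0.16 and from -0.03 to 0.35, so that none of the 3 medians kept its sign. Every log2 difference of a named gene that was followed through the alternatives kept its sign. For most settings this was fixed in advance. The filters, the groups compared alone, the replicate block and no variance trend leave the difference unchanged. Leaving out 1 library cannot turn the sign of a gene whose compared groups do not overlap. With the pseudocounts, the stricter filter, the rescaling, the replicate block and no variance trend the total called in each comparison stayed within 1.5 times that reported. The split by direction moved more: against SCs DT it was 6 higher and 7 lower without a variance trend and 3 and 4 with the block, and against SCs CTRL 8 and 3 after rescaling, 8 and 4 without a trend and 4 and 3 with the block.

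No source says that equal replicate numbers mark shared mice, and the replicate differences of the groups correlated across genes at -0.13 (SCs CTRL and SCs DT), 0.16 (SCs CTRL and α7Sca1 cells) and 0.26 (SCs DT and α7Sca1 cells), so the numbers were not used as pairs. With the replicate number as a block, 1, 7 and 7 genes were called, and Ndufb9 (adjusted p = 0.055) and Uqcr10 (0.0638) lost their call against SCs DT and Ndufs7 (0.0537) against SCs CTRL. With the numbers crossed between SCs CTRL and SCs DT, 1 gene was called. Where a group was left with 1 library, it was assumed to vary like the others.

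Depth limits are not known. Of the 82 genes, 42 in α7Sca1 cells against SCs DT and 43 against SCs CTRL had a 95% interval within 1 log2 unit of 0. Of all 13934 genes 8147 and 8050 did. For the other respiratory genes the interval reached past that limit.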
